A study of Mus musculus with 1829 samples.

Results

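In the islets of NOD/ShiLtJ mice, CD4+ T cells stained with an insulin tetramer of residues 12-20 were compared with cells of the same animals stained with a tetramer of residues 13-21. Islet cells at 7 and 13 weeks of age that carried either label numbered 470, of 1829 cells in the whole series. A cell entered the comparison if its animal or sort had at least 5 cells of each tetramer on the same chip, which left 442 cells, 227 of 12-20 and 215 of 13-21. They came from 10 sources: the 13-week animals M2, M3 and M4, the 7-week animals M2, M7, M10 and M11, and the 7-week islet sorts i1, i2 and i3. The other 28 cells were of 7-week animals M1, M3 and M4 and sort i4, which had under 5 cells of a tetramer. The labels do not say whether a sort was 1 animal, or whether it came from the 7-week animal of the same number, such as i2 and M2. Sorts and animals were counted as separate sources, and sorts i1 and i2 shared a chip. No genetic change, treatment or immunization is named for any group, and the labels set the groups apart by tetramer and age. Both tetramers carried the same fluorophore, and a cell was stained with 1 of them.

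NOD mice develop autoimmune diabetes spontaneously as T cells infiltrate the pancreatic islets and the insulin-producing beta cells are lost. The B chain of insulin is a main target of their CD4+ T cells, which recognise its peptides when IAg7, the class II molecule these mice carry, presents them. The peptides of residues 12-20 and 13-21 are shifted by 1 residue, so that the same stretch of insulin sits in the groove of IAg7 in a different register. An activated CD4+ T cell can take up several programmes. Th1 cells make interferon gamma under the transcription factor encoded by Tbx21. Regulatory T cells express Foxp3 and restrain other T cells, and follicular helper cells make interleukin 21 and help B cells.

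Transcripts were measured in each well by quantitative PCR with 96 assays. The value is log2Ex, which is 24 minus the cycle (Ct) at which the assay crossed its threshold, and 0 where the call was fail or Ct was 24 or more. A mean of log2Ex over the wells of an animal therefore rises with how many wells detect a transcript and with how early it appears in those wells. It is not a fold change, and it is not comparable between assays. Most wells detected few transcripts: the median was 10 assays per well, and 91 of 227 wells of 12-20 cells and 83 of 215 of 13-21 cells (39.4% in all) detected at least 20. Such wells numbered 24 of 24 for both tetramers in the 13-week animal M3. They numbered 0 in both tetramers of the 7-week animals M7, M10 and M11, so wells with few transcripts were gathered in certain animals.

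The number of transcripts per well did not separate the tetramers beyond the spread of the pairs. Wells with at least 20 assays made up 37.4% ± 40.03 in 12-20 cells and 37.8% ± 43.2 in 13-21 cells (SD, n = 10), a difference of -0.463 percentage points ± 14.7 (exact paired permutation test, two-sided, p = 1.0, adjusted p = 1.0 over 3 comparisons). Sort i2 stood apart, with 20 of 38 wells in 12-20 cells against 5 of 36 in 13-21 cells. Without it, 12-20 cells had the lower share by 4.82 points (difference -4.82, exact permutation p = 0.0625), lower in 5 sources and equal in 4, and 0.0625 is the smallest p that 5 unequal pairs allow. With the pass and fail calls ignored the difference over all 10 sources was -12.7 points (exact permutation p = 0.0508). Over all wells the mean number of assays was 22.02 ± 15.6 and 22.2 ± 15.3 (exact permutation p = 0.949, adjusted p = 1.0). Among wells with at least 20 assays it was 46.5 ± 2.80 and 45.6 ± 3.34 in 5 sources (exact permutation p = 0.375, adjusted p = 1.0; the smallest p that 5 pairs allow is 0.0625).

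**Figure D1:**
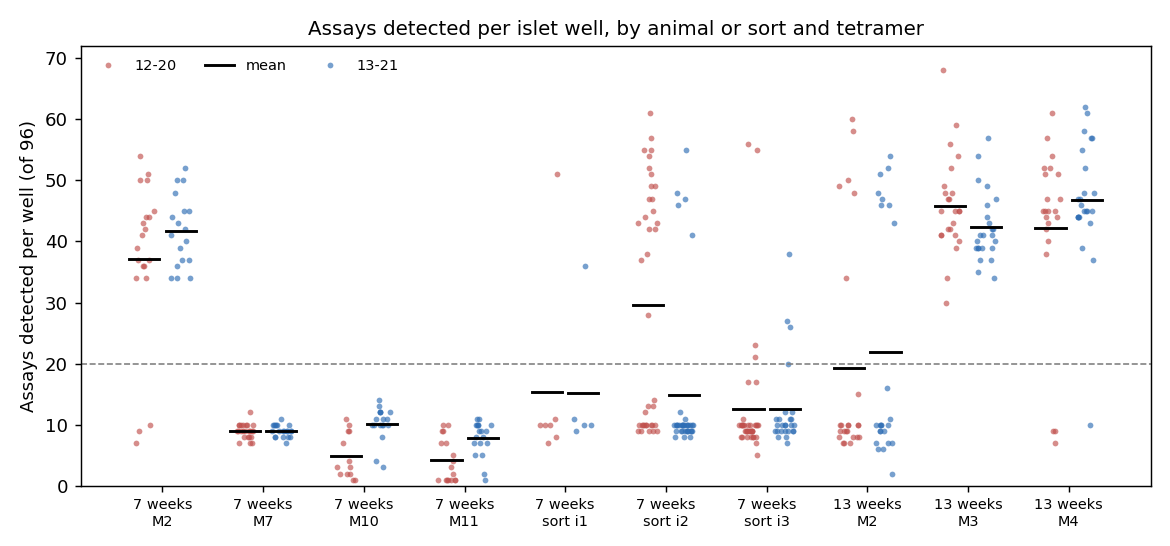
Assays detected per islet well, of 96 (vertical axis), by animal or sort and tetramer; each point is 1 well, the black bars are means and the dashed line is 20 assays. Nearly all wells of the 13-week animals M3 and M4 and of the 7-week animal M2 lie above the line, no well of the 7-week animals M7, M10 and M11 does, and sort i2 has 20 such wells in 12-20 cells and 5 in 13-21 cells.

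Gene by gene, results are given first for the wells with at least 20 assays, of which 86 of 12-20 cells and 78 of 13-21 cells remained in the 5 sources with at least 5 of each. By source these were 6 and 8 wells of the 13-week animal M2, 24 and 24 of M3, 19 and 23 of M4, 17 and 18 of the 7-week animal M2, and 20 and 5 of sort i2. Values per source are listed below in that order. The labelled identity was checked on Cd4, the co-receptor of helper T cells, and Cd3e, a signalling chain of the T cell receptor complex. Cd4 was detected in 85 of 86 wells of 12-20 cells and 76 of 78 of 13-21 cells, and Cd8a, the co-receptor of killer T cells, in 5 wells in all.

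A fraction of the Cd4-positive wells lacked Cd3e and several other T cell transcripts. Cd3e was detected in 66 of the 86 wells of 12-20 cells and 65 of the 78 of 13-21 cells, and missing in 33, of which 30 had Cd4. The median number of assays was 45 both in wells with Cd3e and in wells without, so the latter did not hold fewer transcripts. In the 33 wells 24 assays were at 0, of which 1 was Cd3e itself and 7 were at 0 in the wells with Cd3e too, where 11 assays were at 0. Of the other 16, 11 were in at least 10% of wells with Cd3e. Among these were Zap70, the kinase that the receptor recruits, the inhibitory receptors Ctla4 and Pdcd1, and Ifng, Tbx21, Il21, Foxp3 and Il18r1. Other T cell genes were still detected in the 33 wells, though in a lower share than in wells with Cd3e: Fyn, a kinase, in 75.8% against 98.5%, Icos in 36.4% against 87.02%, Cxcr3 in 15.2% against 77.9%, and Cd28 and Stat4 both in 12.1% against 89.3% and 78.6%. A count of 0 among 33 wells allows a share of up to 9.09%, counting error only. Cd86, a co-stimulatory ligand that antigen-presenting cells show to T cells, was instead detected in 32 of the 33 (96.97%, exact 95% interval 84.2 to 99.9%) and in 15 of the wells with Cd3e (11.5%, 6.55 to 18.2%). The other ligands were Cd80 in 69.7% against 6.87%, Cd40 in 48.5% against 6.11%, Icam1 in 87.9% against 41.98% and Cd274 in 78.8% against 64.9%. Ccr1, a chemokine receptor, was in 75.8% against 3.05%, the transcription factor gene Zeb2 in 93.9% against 22.9%, and both Ifngr1 and Tnfrsf1a in all 33 wells against 46.6% and 29.8%. Wells of 1 animal are not independent, and this split was made after the values were seen, so it is given without a test.

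**Figure D2:**
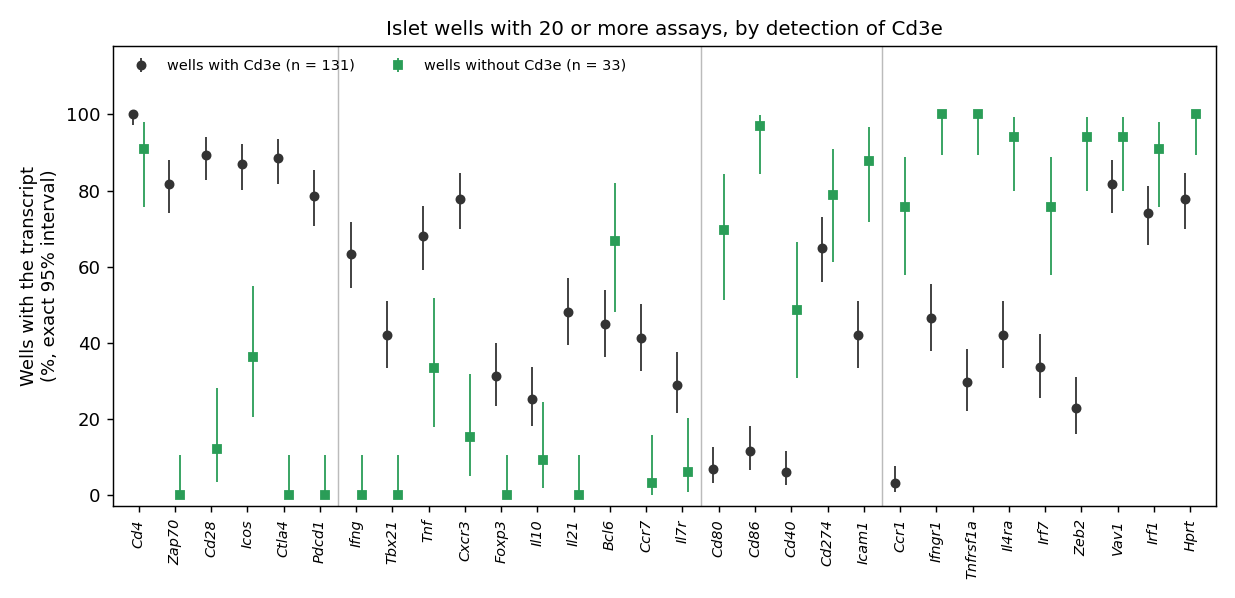
Percentage of islet wells with at least 20 assays in which a transcript was detected, for wells with Cd3e (black) and the 33 without (green). Bars are exact 95% intervals, which cover counting error. Grey lines part T cell genes (Cd4 to Pdcd1), subset genes, ligands and other genes. Of the 33 wells without Cd3e 30 have Cd4 and 32 have Cd86, and none has Zap70, Ctla4, Pdcd1, Ifng, Tbx21, Foxp3 or Il21.

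The panel held 0 of the listed defining markers of B cells, myeloid cells, NK cells or islet endocrine cells, so these wells are given no cell type. They were unevenly spread over animals. In 12-20 and 13-21 cells they numbered 2 and 4 in the 13-week animal M2, 6 and 1 in M3, 11 and 6 in M4, 1 and 2 in the 7-week animal M2, and 0 and 0 in sort i2. At 13 weeks they numbered 30 and at 7 weeks 3. The share was 24.4% ± 23.1 in 12-20 cells and 18.3% ± 20.3 in 13-21 cells (SD, n = 5), a mean difference of 6.15 points with an SD of 19.8 between pairs. Lymph node wells of the animals with both tissues held them too: 16 had no Cd3e, of which 12 had Cd86, and 100 had Cd3e. Most gene differences that follow are therefore also given for wells with Cd3e. There the 13-week animal M2 kept 4 wells of each tetramer and fell under the minimum of 5, so 4 sources remained, or 5 at a minimum of 4 wells.

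No transcript passed the test of a tetramer difference. Of the 96 assays 80 were tested, those in at least 5% of the wells of either tetramer. In wells with at least 20 assays, 0 of 80 genes (0.0%) had an adjusted p under 0.05 in limma's paired fit, and 2 (2.5%) had an unadjusted p under 0.05, Vav1 among them. Restricted to wells with Cd3e, 0 of 75 (0.0%) passed and 1 (1.33%) had an unadjusted p under 0.05, and with a minimum of 4 wells 0 of 75 (0.0%) and 4 (5.33%). The differences of the 80 genes, 12-20 minus 13-21, had a median of 0.13 log2Ex and a lowest value of -1.36. Their 95% intervals reached a median of 1.39 log2Ex to either side. For 47 of the 80 genes the whole interval lay within 2 log2Ex of 0, and for all 80 within 4. A difference smaller than the reach of its own interval could not be told from 0 with 5 pairs.

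**Figure D3:**
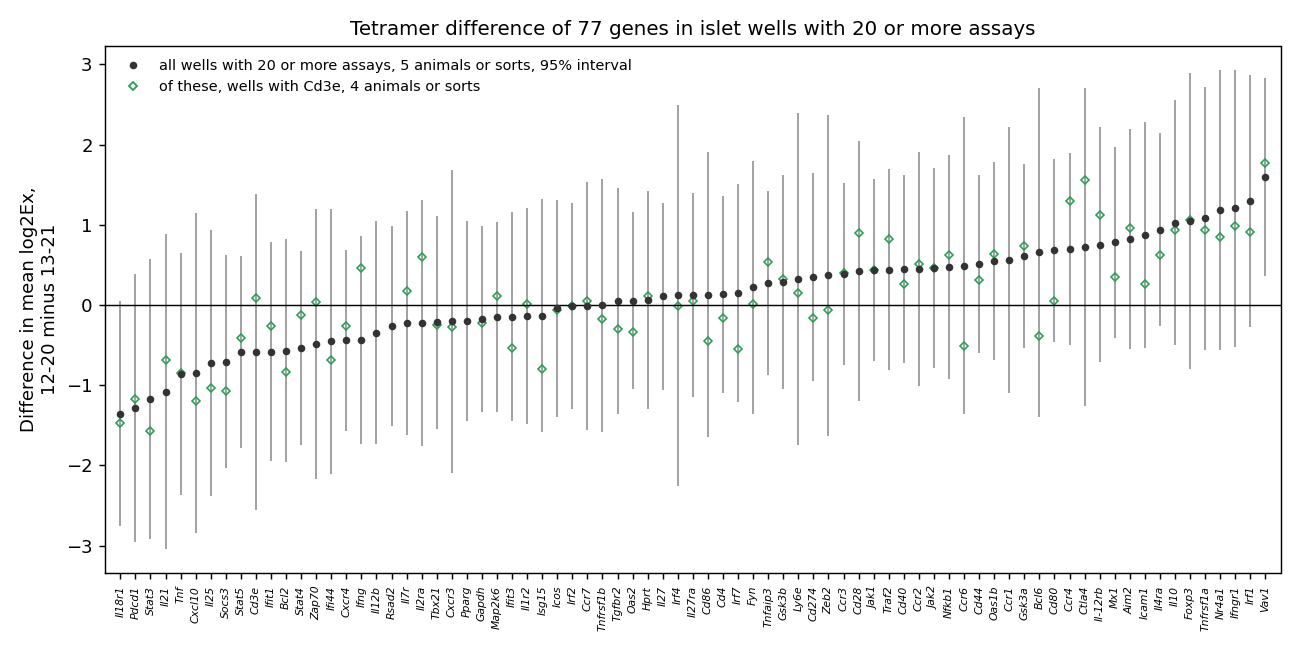
Difference in mean log2Ex, 12-20 minus 13-21 (vertical axis), for 77 of the 80 genes tested, in order of size: black points are the limma estimates over 5 sources in wells with at least 20 assays, grey lines their 95% intervals, and green diamonds the estimates in the wells with Cd3e over 4 sources. Of the intervals drawn that of Vav1, toward the right, does not span 0, and Vav1 does not pass after adjustment.

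The share of wells with a given transcript, averaged over sources, was also close in most assays. Averaged over the 5 sources, the share of wells with a transcript differed by under 10 points for 83 of 96 assays, and the lowest value was -15.8 points (Il18r1). The 96 include 7 assays in no well and 14 in at least 90% of wells of both tetramers, which had little room to differ. Single pairs differed more than the averages. The Foxp3 share differed by 9.07 points with an SD of 25.8 between pairs, and that of Il21 by -10.6 with an SD of 27.8. Across the 96 assays the shares had a Pearson correlation of 0.985, a description over assays that share wells, animals and primer efficiency. In both tetramers 14 assays were in at least 90% of wells, among them Jak1, Fyn and Tgfbr2 as well as Cd4 and Gapdh. The assays for Gata4, Ifi44l, Il3, Il4, Il5, Il5ra and Il6 were in no well of either. For 86 and 78 wells a count of 0 allows a share of up to 3.49% and 3.85%. Transcripts of the Th2 cytokines interleukin 4 and interleukin 5 were thus not detected in islet cells of either register. Whether these 7 assays can detect their transcripts was not tested, and the limits hold only if they can. Il2, the growth factor of activated T cells, was in 1 well of 12-20 cells and 0 wells of 13-21 cells and was not tested.

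Ifng, which encodes the effector cytokine of Th1 cells, was detected in 43 of 86 wells of 12-20 cells and 40 of 78 wells of 13-21 cells. Mean log2Ex of Ifng in the 5 sources was 0.92, 5.03, 2.46, 5.51 and 7.60 in 12-20 cells and 1.28, 7.36, 2.0, 5.93 and 7.12 in 13-21 cells. Both cell types were low in the 13-week animal M2 and high in sort i2, and their ranges overlapped. The difference was -0.43 (SE 0.58, 95% interval -1.73 to 0.86, adjusted p = 0.913), with 12-20 cells higher in 2 of 5. It was 0.46 in wells with Cd3e over 4 sources and 0.13 over 5, and Ifng was detected in 43 of 66 wells of 12-20 cells and 40 of 65 wells of 13-21 cells. The sign of the Ifng difference thus changed with the wells kept.

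Th1 and effector genes lay on both sides of 0. Of the 11 on the panel 10 were tested, 0 passed, 4 lay above 0 and 6 below, with a median difference of -0.21 beside 0.13 over all 80 genes. The median in wells with Cd3e was 0.17 beside 0.05. Tbx21, the Th1 transcription factor gene, had 2.85, 2.85, 0.86, 3.39 and 3.50 in 12-20 cells and 1.87, 2.35, 2.39, 2.81 and 5.09 in 13-21 cells, a difference of -0.22 (-1.55 to 1.11). Tbx21 was higher in 12-20 cells in 3 of 5 sources. Tnf, an inflammatory cytokine, differed by -0.86 (-2.37 to 0.64), and Cxcr3, the chemokine receptor of Th1 cells, by -0.20 (-2.09 to 1.69) although 12-20 cells were higher in 4 of 5. In the 13-week animal M4 alone Cxcr3 was lower in 12-20 cells, at 2.30 against 6.79, and 11 of the 19 wells of 12-20 cells there lacked Cd3e. Cxcr3 in wells with Cd3e was lower in 12-20 cells in 3 of 5 sources, at 5.46 against 8.26 in M4, 9.13 against 10.62 in the 13-week animal M2 and 6.79 against 7.74 in the 7-week animal M2, so the count of sources turned. The Cxcr3 difference there was -0.28 over 4 sources and -0.52 over 5. Tbx21 differed by -0.25 and -0.10 in these wells, and Tnf by -0.85 and -1.4.

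Il18r1, a chain of the interleukin 18 receptor, had the largest difference below 0. Its means were 2.0, 2.71, 1.37, 2.97 and 7.31 in 12-20 cells and 2.26, 2.49, 4.80, 4.38 and 9.21 in 13-21 cells, lower in 12-20 cells in 4 of 5 sources. The difference was -1.36 (SE 0.63, -2.76 to 0.05, limma adjusted p = 0.913). With Cd3e required it was -1.47 over 4 sources (-3.25 to 0.30, limma adjusted p = 0.941) and -1.49 over 5 (-2.96 to -0.01, limma adjusted p = 0.703).

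The receptor genes for interferon gamma and tumour necrosis factor, both found in all 33 wells without Cd3e, were not called either. Ifngr1 had 11.41, 6.58, 9.58, 3.05 and 5.25 in 12-20 cells and 11.08, 1.86, 8.24, 2.36 and 6.32 in 13-21 cells. The difference of 1.20 (-0.52 to 2.93) had its largest pair in the 13-week animal M3. It was 0.32 without M3, and 0.98 (-0.89 to 2.85) in wells with Cd3e. Tnfrsf1a, the main receptor for tumour necrosis factor, differed by 1.08 (-0.57 to 2.72), and by 0.93 (-0.79 to 2.65) in wells with Cd3e.

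Of 4 regulatory T cell genes 0 passed, 3 were above 0 and 1 below, with a median of 0.87 beside 0.13 over all 80 genes. With Cd3e required all 4 were above 0 over 4 sources, with a median of 1.0 beside 0.05, and 3 over 5 sources, with a median of 1.06 beside 0.22. Foxp3, the transcription factor gene that defines regulatory T cells, had 5.73, 3.26, 1.0, 2.47 and 2.49 in 12-20 cells and 3.71, 0.00, 4.08, 0.98 and 0.96 in 13-21 cells. It was higher in 12-20 cells in 4 sources and lower in the 13-week animal M4, where the difference was -3.08. The mean difference was 1.04 (SE 0.83, -0.80 to 2.89, limma adjusted p = 0.913), and 1.07 (-1.46 to 3.59) in wells with Cd3e.

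In the 13-week animal M3 Foxp3 was detected in 37.5% of 24 wells of 12-20 cells and in 0 of 24 wells of 13-21 cells, which allows a share of up to 12.5%. In M4 it was in 10.5% and 43.5%, so 2 animals of the same age differed in opposite directions. Il10, an anti-inflammatory cytokine, had 5.65, 3.10, 1.02, 2.97 and 1.93 in 12-20 cells and 3.52, 0.81, 2.24, 0.57 and 2.42 in 13-21 cells. The difference was 1.02 (-0.50 to 2.55), and 0.94 (-0.98 to 2.86) in wells with Cd3e, with 12-20 cells higher in 3 of 5 sources. In the wells that detected Il10 its level was 10.3 in 12-20 cells and 7.93 in 13-21 cells, a difference of 2.37 ± 0.63 over the 2 sources with at least 3 such wells of each. Il2ra, a chain of the interleukin 2 receptor that regulatory cells express at a high level, differed by -0.22 (-1.76 to 1.31), and by 0.60 over 4 sources and -0.22 over 5 in wells with Cd3e. Ctla4, an inhibitory receptor, differed by 0.72 (-1.26 to 2.70), and by 1.56 (-0.43 to 3.54) over 4 sources and 1.17 (-0.53 to 2.88) over 5 in wells with Cd3e.

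Foxp3 often came with Il10 in the same well. Among wells with Cd3e, pooled over 5 sources, Foxp3 was in 25 of 66 wells of 12-20 cells and 16 of 65 of 13-21 cells, and all of these had Ctla4, itself in 88.55% of wells with Cd3e. Il10 was in 25.2% of wells with Cd3e, in 21 of 66 of 12-20 cells (31.8%) and 12 of 65 of 13-21 cells (18.5%). Ifng was in 65.2% and 61.5%. Foxp3 and Il10 were together in 19 of 66 (28.8%, exact 95% interval 18.3 to 41.3%) and 9 of 65 (13.8%, 6.53 to 24.7%), and without M3 in 14 of 48 (29.2%) and 9 of 42 (21.4%). Wells with both Ifng and Il10 numbered 11 of 66 (16.7%, 8.62 to 27.9%) and 3 of 65 (4.62%, 0.962 to 12.9%), and wells with both Ifng and Foxp3 likewise 11 and 3. These counts pool animals, are of a few pairs among several counted, and have no test. Il10 and Foxp3 alone were each in more wells of 12-20 cells, so the pairs are not separate from that. By source, Ifng and Il10 were together in 1 of 6, 4 of 24, 1 of 19, 2 of 17 and 3 of 20 wells of 12-20 cells with at least 20 assays. In 13-21 cells they were together in 0 of 8, 1 of 24, 0 of 23, 1 of 18 and 1 of 5. The share was higher in 12-20 cells in 4 of 5 sources, with a mean difference of 7.13 points and an SD of 8.23. For Il10 alone the share was also higher in 4 of 5, by 10.2 points with an SD of 14.1.

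**Figure D4:**
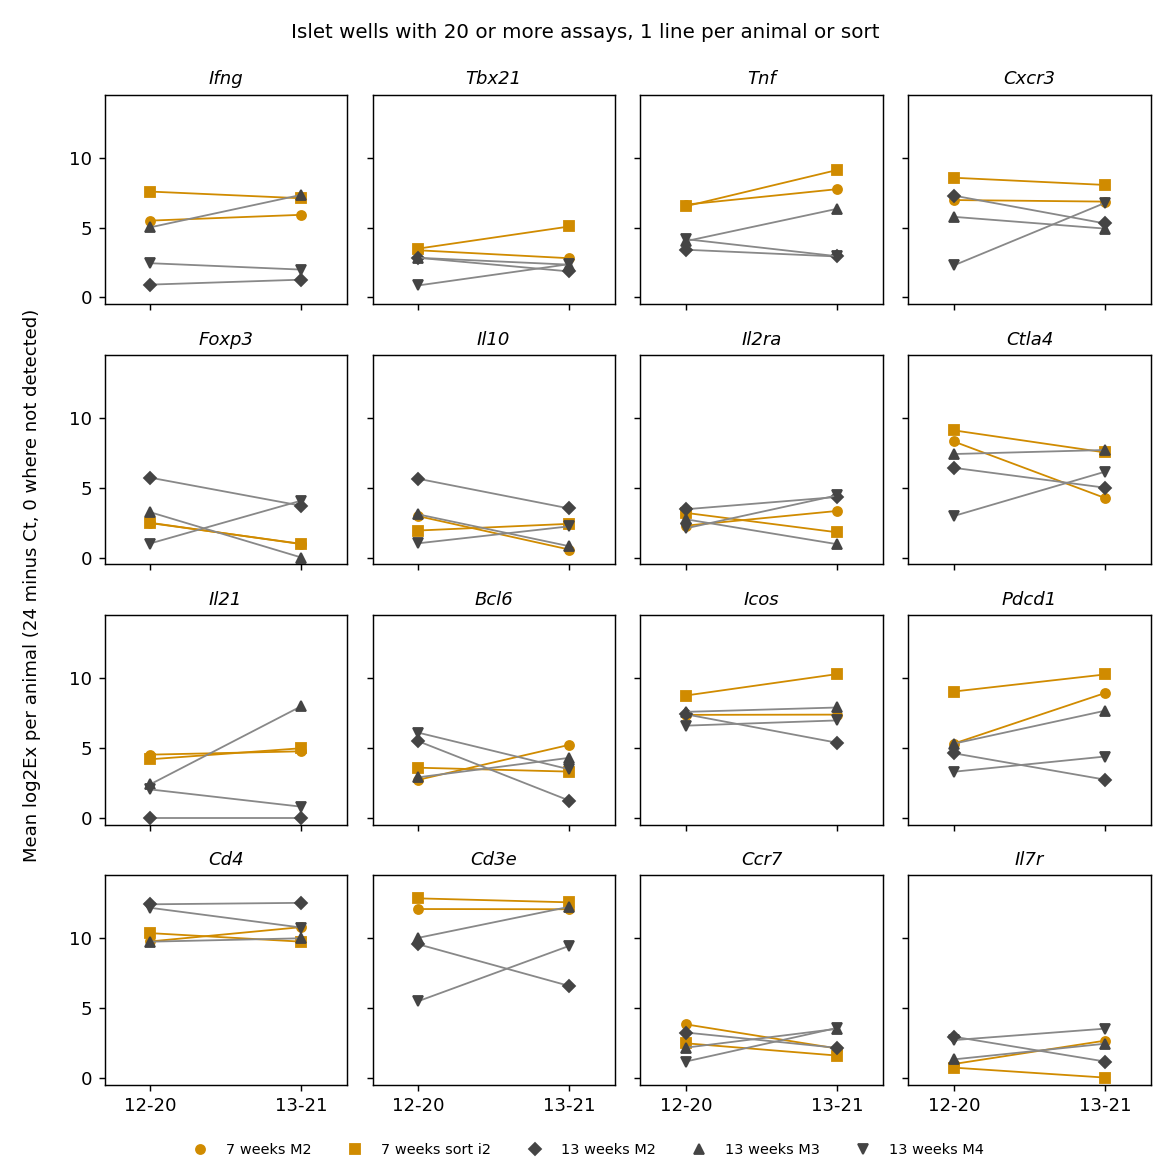
Mean log2Ex per source in islet wells with at least 20 assays for 16 genes, with 12-20 cells at the left and 13-21 cells at the right of each panel; each line joins the tetramers of 1 animal or sort, in yellow at 7 weeks and grey at 13 weeks. Foxp3 runs down from 12-20 to 13-21 cells in 4 lines and up in the 13-week animal M4, Il21 is at 0 for both in the 13-week animal M2, and the lines of Icos and Cd4 run in both directions.

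Of 4 follicular helper genes 0 passed, 1 was above 0 and 3 below, with a median of -0.56 beside 0.13. The median in wells with Cd3e was -0.54 over 4 sources and -0.17 over 5, beside 0.05 and 0.22 over all genes tested. Il21, a cytokine that supports B cells and is needed for diabetes in NOD mice, had 0.00, 2.38, 2.02, 4.51 and 4.18 in 12-20 cells. In 13-21 cells it had 0.00, 7.99, 0.78, 4.75 and 4.97. The difference was -1.08 (-3.05 to 0.88). Its largest pair was the 13-week animal M3, in which Il21 was detected in 25% of 12-20 cells and 83.3% of 13-21 cells. In M4 it was the other way, at 21.1% and 8.70%. Without M3 the Il21 difference was 0.05. Il21 and Pdcd1 were together in 23 of 66 wells of 12-20 cells with Cd3e (34.8%, exact 95% interval 23.5 to 47.6%) and in 31 of 65 of 13-21 cells (47.7%, 35.1 to 60.5%). Of the 31, 18 were of M3. Without M3 the order turned, with 18 of 48 (37.5%) and 13 of 42 (30.95%).

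Pdcd1, which encodes the inhibitory receptor PD-1, had 4.61, 5.30, 3.29, 5.30 and 9.04 in 12-20 cells and 2.72, 7.66, 4.38, 8.93 and 10.27 in 13-21 cells. It was lower in 12-20 cells in 4 of 5 sources, by 1.28 on average (difference -1.28, SE 0.75, -2.96 to 0.39, limma adjusted p = 0.913), and by -1.17 (-3.38 to 1.04) in wells with Cd3e over 4 sources. Over 5 it was -0.64 (-2.57 to 1.29), lower in 12-20 cells in 3 of 5, and M4 turned to 7.80 against 5.92. Bcl6, the follicular helper transcription factor gene, differed by 0.65 (-1.39 to 2.70), and by -0.39 over 4 sources and 0.46 over 5 in wells with Cd3e, so its sign changed with the wells kept. Bcl6 was detected in 66.7% of wells without Cd3e against 45.04% of wells with it. Icos, a co-stimulatory receptor, had among the smallest mean differences, at -0.04 (-1.39 to 1.31), with pairs from -1.54 to 2.04, and was at -0.06 over 4 sources and 0.22 over 5 in wells with Cd3e. It was in 74.3% ± 7.29 of 12-20 cells and 77.8% ± 18.5 of 13-21 cells (SD, n = 5).

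Activation genes showed no call in either direction. Of 5 tested 4 lay above 0 and 1 below, with a median of 0.43. In wells with Cd3e the counts were the same, with a median of 0.60 over 4 sources and 1.18 over 5. Over all 80 genes 47 lay above 0, with a median of 0.13. With Cd3e required 43 of 75 did over 4 sources and 50 of 75 over 5, with medians of 0.05 and 0.22. Cd44, an adhesion receptor kept by antigen-experienced cells, was higher in 12-20 cells in 5 of 5 sources, at 3.71, 1.27, 1.92, 1.16 and 2.64 against 2.84, 0.85, 1.71, 1.05 and 1.72. The difference of Cd44 was small beside its error, at 0.51 (SE 0.50, -0.60 to 1.62), and 0.31 (-0.98 to 1.6) in wells with Cd3e. In those wells the 13-week animal M3 turned, with Cd44 at 0.81 against 0.88. The share of wells with Cd44 was there higher in 12-20 cells in 3 sources and lower in 2. Nr4a1, an immediate early gene that follows T cell receptor signals, differed by 1.19 (-0.56 to 2.93), and Irf4, a transcription factor gene scaled to receptor strength, by 0.12 (-2.25 to 2.5). Irf4 varied between pairs by an SD of 3.41, with 6.68 against 2.44 in the 13-week animal M2 and 3.36 against 7.92 in sort i2. With Cd3e required, Nr4a1 differed by 0.85 (-0.83 to 2.52) over 4 sources and 1.9 (-0.13 to 3.94) over 5, and Irf4 by -0.01 and 1.18. Cd28, the main co-stimulatory receptor, differed by 0.43 (-1.19 to 2.05). The Cd28 difference in wells with Cd3e was 0.90 (-0.44 to 2.24) over 4 sources and 1.38 (0.03 to 2.73, limma adjusted p = 0.703) over 5, with a higher share of wells in 12-20 cells in 5 of 5 sources.

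Both genes of naive and recirculating cells had differences near 0. Ccr7, the receptor that guides T cells to lymph nodes, was in 31.2% ± 11.7 of 12-20 cells and 32.2% ± 13.5 of 13-21 cells (SD, n = 5), a difference in mean log2Ex of -0.01 (-1.56 to 1.54). Il7r, the interleukin 7 receptor of resting cells, differed by -0.23 (-1.63 to 1.18). Ccr7 in wells with Cd3e differed by 0.04 over 4 sources and 0.15 over 5, and Il7r by 0.17 and 0.56. Cd4 had 12.43, 9.75, 12.18, 9.77 and 10.36 in 12-20 cells and 12.54, 9.99, 10.76, 10.79 and 9.75 in 13-21 cells, a difference of 0.13 (-1.10 to 1.36), and of -0.16 over 4 sources and 0.08 over 5 in wells with Cd3e. Cd3e differed by -0.58 (-2.55 to 1.39) over all 5 sources, with the missing wells counted as 0.

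Among signalling genes Vav1, an exchange factor that relays T cell receptor signals to the cytoskeleton, had the lowest p. Its means were 10.88, 8.96, 10.47, 7.06 and 6.59 in 12-20 cells and 10.41, 6.39, 9.28, 5.97 and 3.92 in 13-21 cells, higher in 12-20 cells in 5 of 5 sources. The ranges over sources overlapped. The difference was 1.6 (SE 0.56, 0.36 to 2.84, limma unadjusted p = 0.0166, adjusted p = 0.785). In wells with Cd3e it was 1.77 (0.38 to 3.16, limma adjusted p = 0.941) over 4 sources and 1.72 (0.51 to 2.93, limma adjusted p = 0.703) over 5. Vav1 was in 90.6% ± 11.4 of wells against 74.6% ± 24.3 (SD, n = 5), while detecting wells differed in level by 0.29 ± 0.49 (SD, n = 4).

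Stat3, which relays interleukin 6 and interleukin 21 signals, had 10.97, 7.94, 10.35, 5.04 and 6.31 in 12-20 cells and 10.46, 7.45, 10.08, 8.44 and 10.09 in 13-21 cells. It was lower in 12-20 cells in both 7-week sources and slightly higher in the 3 animals at 13 weeks, with a mean difference of -1.18 (-2.92 to 0.57), and of -1.58 over 4 sources and -1.18 over 5 in wells with Cd3e. Irf1, an interferon-induced transcription factor gene, differed by 1.29 (-0.27 to 2.86), and by 0.92 (-1.03 to 2.86) in wells with Cd3e. Of 12 interferon-stimulated genes 6 lay above 0 and 6 below, with a median of -0.04. The list includes Isg15, Ifit3, Ifi44 and Cxcl10, which were also detected in 80.6 to 92.5% of wells with fewer than 20 assays. Of 7 cytokine signalling genes 3 lay above 0 and 4 below, with a median of -0.54. None of either list passed the limma threshold, and the median over all 80 genes was 0.13. Their medians in wells with Cd3e were -0.34 for 11 interferon-stimulated genes and -0.12 for 7 cytokine signalling genes over 4 sources, beside 0.05.

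Source means and the tetramer differences within a source had spreads of similar size. Across the 80 genes the median SD between source means was 1.28 log2Ex, and the paired difference varied between sources by a median SD of 1.4 log2Ex. The median absolute tetramer difference, a mean over 5 pairs, was 0.45, and for 75 of 80 genes the SD between sources was the larger. A mean over 5 pairs varies less than single sources, so that count does not weigh animal against tetramer. The 12-20 and 13-21 cells of a source deviated together from the mean of their tetramer, with a median correlation across genes of 0.630 (range 0.228 to 0.689). Genes are not independent replicates, and both cell types of a source also shared a chip. The animal-wide pattern was plain for Ifng, which was low in both tetramers of the 13-week animal M2 and high in both of sort i2, and for Il18r1, which peaked in both of sort i2. Ifngr1 peaked in both tetramers of the 13-week animal M2, in which 6 of 14 wells lacked Cd3e. In the wells of M2 with Cd3e, 4 of each tetramer, Ifngr1 was at 10.82 and 9.79, again the highest of the sources.

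**Figure D5:**
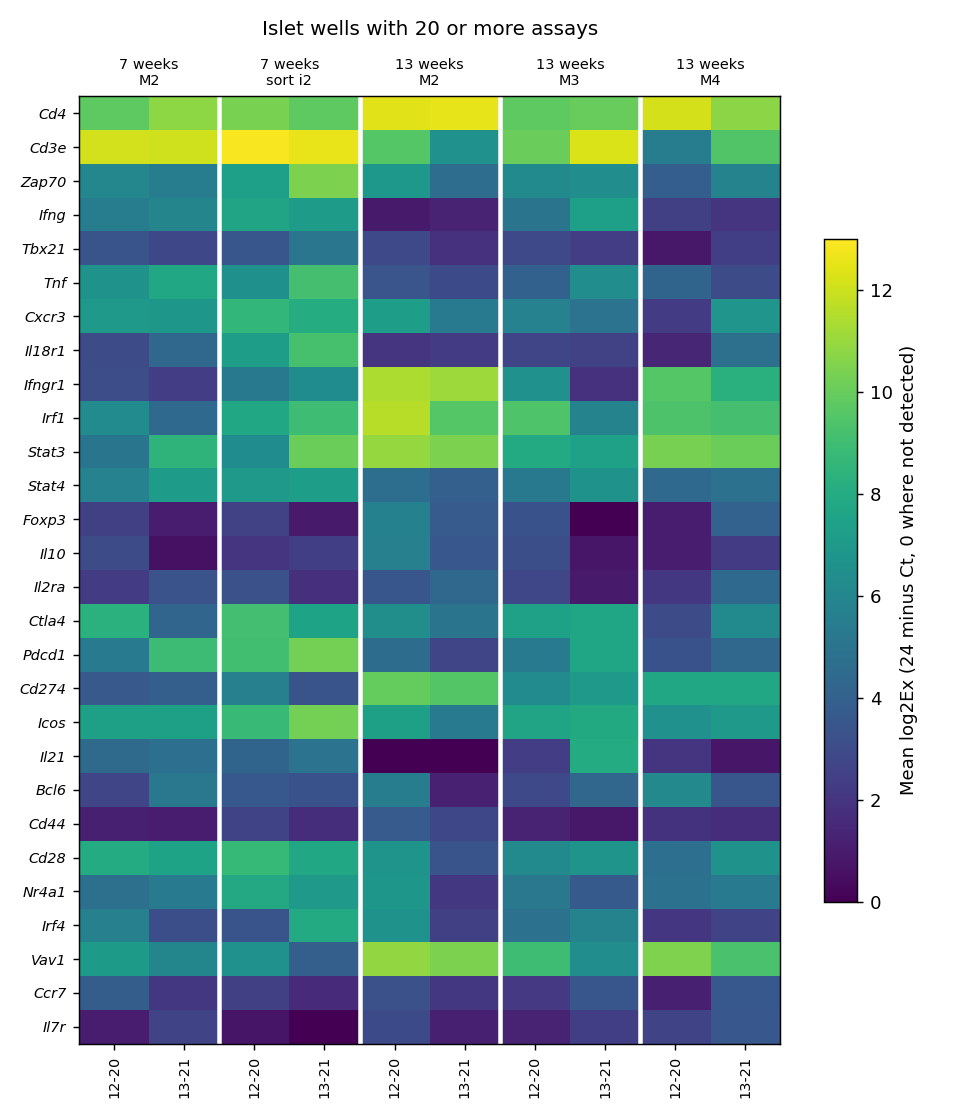
Mean log2Ex (colour, from dark at 0 to yellow at 13) of 28 genes in rows for the 10 groups of islet wells with at least 20 assays, by animal or sort and, within it, by tetramer. Columns of the same source resemble each other for Ifng in the 13-week animal M2 and sort i2, and differ for Foxp3 in the 13-week animals M3 and M4, Ifngr1 and Il21 in M3, and Cxcr3 in M4.

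With all wells kept, 10 sources could be paired and the intervals were narrower, but most values were 0. Again 0 of 73 genes (0.0%) passed in limma and 1 (1.37%) had an unadjusted p under 0.05. The median difference was 0.11, the intervals reached a median of 0.83 log2Ex to either side, and 68 of 73 lay within 2 of 0. Ifng differed by 0.08 (-0.82 to 0.99), Tbx21 by 0.20 (-0.41 to 0.82), Foxp3 by 0.32 (-0.65 to 1.29), Il10 by 0.45 (-0.26 to 1.17), Il21 by -0.34 (-1.53 to 0.85) and Cd4 by 0.24 (-0.82 to 1.3). Among the 6 largest differences above 0 were those of Ifngr1 (0.76), Irf1 (0.72), Vav1 (0.58), Tnfrsf1a (0.52) and Aim2 (0.52), of which the first 4 were also among the 6 largest in wells with at least 20 assays. Those wells are part of both sets, so this is no independent support.

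The largest differences below 0 in all wells belonged to assays that were positive in most of the wells with few transcripts. Il25 differed by -1.11 (SE 0.43, -2.05 to -0.18, limma adjusted p = 0.887), Cxcl10 by -1.22, Ifi44 by -1.09, Ifit3 by -0.96, Ccr6 by -0.94 and Isg15 by -0.93. All 6 were among 10 assays detected in 58.6 to 99.6% of the 268 wells with fewer than 20 assays, in which no other assay exceeded 4.85%. Of these 10, all lay below 0 over all wells, with a median of -0.93. In 12-20 wells of the 7-week animals M10 and M11 a mean of 4.31 and 4.12 of the 10 were detected, against 8.89 and 7.63 in 13-21 wells. Gapdh, a housekeeping gene, was lower there too, at 10.6 and 9.59 log2Ex against 13.4 and 12.4. Without the 3 animals that had no well with at least 20 assays, an alternative chosen after seeing the data, the median of the 10 was -0.12, and in wells with at least 20 assays it was -0.16. The 10 did not move alike. Without the 3 animals Ifit3 was at 0.01 and Isg15 at -0.18, while Il25 was at -0.85 and Cxcl10 at -0.61. In wells with at least 20 assays Il25 was at -0.73 and Cxcl10 at -0.85.

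Whether the tetramer difference itself changed with age was tested by an interaction. In wells with at least 20 assays 0 of 80 genes (0.0%) passed and 3 (3.75%) had an unadjusted p under 0.05, with 2 sources at 7 weeks and 3 at 13. The 2 at 7 weeks were the animal M2 and sort i2, and the labels do not say whether these were different mice. Stat3 had the lowest p: the tetramer difference was -3.58 ± 0.27 at 7 weeks (SD, n = 2) and 0.43 ± 0.13 at 13 weeks (n = 3), a change of 4.01 (SE 1.09, limma adjusted p = 0.385). In wells with Cd3e the Stat3 change was 4.2 (limma adjusted p = 0.390), and 0 of 75 genes (0.0%) passed and 2 (2.67%) had an unadjusted p under 0.05. Ly6e, an interferon-induced surface protein gene, changed by 4.37 (limma adjusted p = 0.494) and Ctla4 by -3.50 (limma adjusted p = 0.925). Over all wells 0 of 73 genes (0.0%) passed and 3 (4.11%) had an unadjusted p under 0.05, Ccr7, Cd3e and Stat5, and there Stat3 changed by -0.17.

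The tetramer difference in islets was also set against that in lymph node cells of the same animals. Over all wells, with 7 animals and 590 cells, 0 of 72 genes (0.0%) passed and 9 (12.5%) had an unadjusted p under 0.05. In wells with at least 20 assays, with 4 animals and 255 cells, these were 0 of 76 (0.0%) and 5 (6.58%), among them Irf4, Stat3, Ifngr1 and Tnfrsf1a. Ifngr1 differed between tetramers by 1.77 ± 2.01 in islets and by -2.08 ± 2.88 in lymph node (SD, n = 4), a gap of 3.86 (0.56 to 7.15, limma adjusted p = 0.591). Tnfrsf1a differed by 1.74 ± 1.55 and -0.67 ± 0.80, a gap of 2.41 (0.16 to 4.66, limma adjusted p = 0.591). Irf4 had a gap of 2.52 and Stat3 of -2.21, with the same adjusted p. In wells with Cd3e, with 3 animals, 0 of 72 (0.0%) passed and 5 (6.94%) had an unadjusted p under 0.05, and the gaps of Ifngr1, Tnfrsf1a and Irf4 were 3.07, 2.51 and 2.90. Without the 7-week animal M2, the Ifngr1 gap passed at 5.60 (SE 1.32, limma adjusted p = 0.00317, n = 3), the 1 call among these fits. Since limma draws the variance of a gene toward that of the other genes, this p does not measure the spread of Ifngr1 alone over 3 animals. That fit also kept wells without Cd3e, and Ifngr1 was in all 33 such islet wells of the sources compared.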

How the data were processed

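The values were Ct per well and assay with pass or fail calls, in tables that the authors deposited, 1 per chip. They were exported with the Fluidigm software, version 4.0.1, per the file headers. Of 42432 values of the 442 wells, 10262 had a pass call and 10171 of these a Ct under 24; 4277 fail calls were under 24 as well. The depth of a well is its number of detected assays; 174 wells had at least 20, 164 of them in the sources compared and 131 of those with Cd3e (123 with at least 5 per tetramer; 178 with lymph node). On the 10 chips used, 138 wells matched no sample and were not used. The 6 cells whose title and tetramer label disagree were left out, as were sources with under 5 cells of a tetramer. By name or synonym 94 of 96 assays matched mouse symbols, and no reference gene scaling was applied.

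Unit means (animal or sort by tetramer) were compared with limma 3.58.1 in R 4.3.3, with the source as a fixed block. Tested genes were in at least 5% of the wells of either tetramer, with Benjamini-Hochberg adjustment and a threshold of 0.05. The pairing comes from the animal in the labels. The median correlation of paired units was 0.769 over all wells (0.0338 to 0.942) and 0.630 in wells with at least 20 assays. P-values measure the spread between these sources, and in limma the variance of each gene is drawn toward that of the other genes tested. Named genes were those passing, 21 index genes, and the 6 largest differences in each direction per well set. Genes named as detected in all, no or Cd3e-negative wells were chosen after their values were seen. Some genes of the panel are not reported here; they stayed in the fits and counts. The members and the gene lists were chosen with earlier results of these data known, and splits by Cd3e after seeing the data. The fits were tested on simulated data with larger differences and less spread within pairs than most genes had here. That check does not show what could be detected in these data. Tables were read with pandas 2.3.3 and tests run with scipy 1.17.1.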

Additional observations from a re-analysis of the deposited data

Results flagged for a closer look

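Among 61 sets of paired differences (12-20 minus 13-21, 1 value per source), 10 held a source far from the others by Dixon's test. In independent, normally spread sets chance gives about 1 in 20. These sets share sources, wells and genes, so the 10 cannot be weighed against that rate. Sort i2 stood apart in its share of wells of 20 assays or more, at 38.7 points against -15.0 to 0.0 in the other 9 sources, and in assays per well, at 14.8 against -5.24 to 3.58. Over all wells it also stood apart in Icos (3.18), Cd44 (1.15) and Cd28 (3.49 log2Ex). With at least 20 assays per well the sort i2 differences of Icos, Cd44 and Cd28 did not stand apart.

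The 13-week animal M4 stood apart in Foxp3, at -3.04 log2Ex over all wells and -3.08 in wells with at least 20 assays, where the other 4 sources lay between 1.49 and 3.26. It also stood apart in Tbx21 over all wells, at -1.55. In M4, 11 of 19 wells of 12-20 cells and 6 of 23 of 13-21 cells lacked Cd3e. In wells with Cd3e its Foxp3 was 2.39 against 5.52 and its Tbx21 2.04 against 3.24, so the direction was the same there.

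Over all wells, the 13-week animal M3 stood apart in Il21 (-5.61) and Ifngr1 (4.73 log2Ex). In wells with Cd3e of M3 the Il21 mean was 3.17 against 8.34 and that of Ifngr1 5.23 against 1.67. What sets these sources apart was not tested.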

How the results depend on the processing

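The alternatives were other cycle limits, calls ignored, other minimums of cells, assays and detection, centring, ages alone, merged or left-out sources, no replicate block, and, chosen after seeing the data, wells with Cd3e or Cd4 and the removal of animals with no well of at least 20 assays. The limma count of 0 genes held in 28 of 28 alternatives over all wells and in 26 of 26 with at least 20 assays, with up to 7 and 9 genes at an unadjusted p under 0.05 and lowest adjusted p of 0.238 and 0.102. It held in 13 of 13 and 9 of 9 for age, in 10 of 10 for lymph node over all wells, and in 7 of 8 with at least 20 assays, where leaving out 1 source gave 0 to 1. Without the replicate block the counts were 0 and the share difference was -0.463 points (permutation p = 0.982), so the block changed no call. The share difference of -0.463 was 1.88 at 7 weeks alone and 0.0630 at a minimum of 15 assays, and ran from -4.82 (without sort i2) to 1.15 (without the 7-week animal M2) on leaving out 1 source. With calls ignored it was -12.7 (exact permutation p = 0.0508). Assays per well over all wells differed by 0.222 at 7 weeks alone and from -1.88 to 0.349 on leaving out 1 source. Among named genes the sign changed in 99 of 883 values over all wells and 83 of 728 with at least 20 assays, and 6 of 32 and 8 of 28 genes kept their sign in every alternative. Centring shifts differences by the mean over genes, 0.03 and 0.15. The cause of these changes was not tested. The limits are 5 pairs, wells with few transcripts, and a source, a chip and a sort that cannot be told apart.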
